A study of Mus musculus with 6 samples.

Results

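The urea cycle and the breakdown of amino acids were described here in liver RNA of *Txndc5*-deficient (KO) and wild type (WT) mice, over 48 enzyme genes chosen by symbol and found in all 48 cases among the 16123 genes of the expression table. The mice were 2-month-old males on a purified chow diet for 4 weeks, and all of them were fasted for 16 h before sacrifice. WT livers were C57BL/6Rj, and KO livers were C57BL/6JRj-*Txndc5*<em2Mdnp>/Ciba, a germline deletion of exon 3 made with CRISPR/Cas9 whose line descends from 1 founder. Mice of both genotypes were born of crosses between heterozygotes. RNA of 3 mice was combined into each pool, and 3 WT and 3 KO pools were sequenced. The expression table gives 1 combined value per genotype for each gene, on the scale of reads divided by a library size factor, so that the spread between pools is not visible for any gene and no difference below carries an error or a test. All differences are given as the log2 of the KO value over the WT value.

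The liver removes the nitrogen of amino acids as urea. Transaminases and glutamate dehydrogenase pass amino groups to glutamate, ammonia and aspartate, and the urea cycle joins them into urea, with its first steps in mitochondria and its later steps in the cytosol. The carbon skeletons are taken down separate routes for tyrosine, tryptophan, histidine, serine, methionine, proline, lysine and the branched chain amino acids, and in fasting they feed glucose and ketone body synthesis. Most of these enzymes are made at high level in hepatocytes, the urea cycle, glutaminase 2 and histidine ammonia lyase mainly around the portal vein and ornithine aminotransferase around the central vein.

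The libraries held between 44.0 and 46.1 M clean reads, of which 91.6% to 93.7% were mapped and 62.2% to 65.7% were mapped uniquely. Ribosomal RNA made up 0.26% to 0.40% of the KO libraries and 0.34% to 0.69% of the WT libraries. The targeted gene, *Txndc5*, had a value of 2697 in WT against 90.8 in KO. The acute phase genes *Saa1* and *Saa2* had 542 and 299 in WT and 4748 and 4056 in KO. Albumin (*Alb*), the defining hepatocyte transcript, had a log2 ratio of 0.0033. Of 5 hepatocyte markers found, 4 were lower in KO, and their median was −0.15. Genes of red blood cells were higher in KO in 5 of 5 cases, with summed values of 116725 in WT against 177644 in KO. The summed values of 6 Kupffer cell genes were 2784 and 3226, those of 5 endothelial genes 1870 and 1810, those of 5 stellate cell genes 2018 and 1789 (although 3 of the 5 had higher KO values and the median was 0.17 on the log2 scale), and those of 4 bile duct genes 156 and 149. The part of these cell types in the differences below was not tested, and in bulk liver fewer cells of a type and less RNA per cell cannot be told apart.

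Most of the 48 genes had somewhat lower values in KO, and the differences were small. The value was lower in KO for 38 genes (79.2%) and higher for 10, while lower values made up 57.7% among all 11367 genes whose mean value reached 10, and 55.9% among the 7063 genes whose mean value reached 100. The median log2 ratio of the 48 genes was −0.12, beside −0.03 for the 7063 genes. The count of lower genes depended on the scaling, since it was 32 after centring on the median of all genes (−0.05) and 28 after scaling both genotypes to the same sum (log2 ratio of the sums −0.09). Both of these scalings raise every ratio, and the median of the 48 genes was then −0.08 and −0.03. The shares of 57.7% and 55.9% are without rescaling, and the shares of all genes also fall under these scalings. After centring, as many of the 11367 genes lie below 0 as above it. The share of all genes after scaling to the same sum was not counted. None of the 48 genes differed by 1.5-fold or more in either direction, and by that much 5.79% of the 11367 genes were lower and 1.57% higher. The share past 1.5-fold in either direction was 3.91% among genes whose mean value reached 100 and 1.87% among those that reached 1000. A log2 ratio of at least 0.32 in size, used below as the lower limit, was found for 8 genes. *Dbt*, *Sdsl*, *Asl*, *Otc*, *Gnmt* and *Cth* were lower and *Oat* and *Glud1* were higher, that is 6 and 2 of 48 genes. Past this limit lay 16.4% of the 11367 genes on the lower and 8.27% on the higher side, and 10.1% and 6.82% of the 7063 genes. The shares of the 48 genes were thus near those of all genes, and most of the lower genes lay within this limit.

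**Figure D1:**
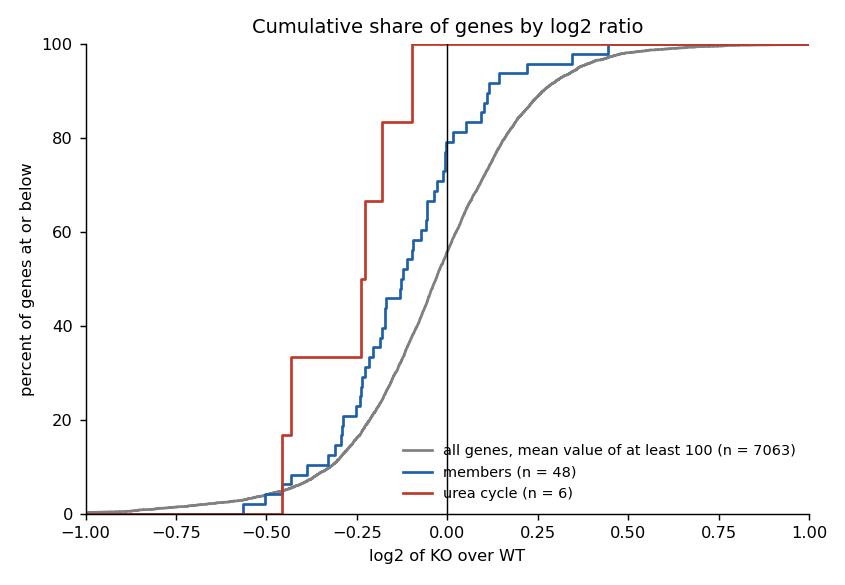
The curves give the percent of genes (vertical axis) whose log2 ratio of KO over WT is at or below the value on the horizontal axis, for 7063 genes whose mean value reached 100, the 48 genes of amino acid catabolism and the 6 urea cycle genes. The curves are drawn without rescaling. The curve of the 48 genes crosses 0 at 79.2% and that of all genes at 55.9%. That of the urea cycle reaches 100% below 0. After scaling to the same sum 28 of the 48 genes were lower. That scaling also raises the ratio of every other gene, and the share of all genes was not recounted.

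**Figure D2:**
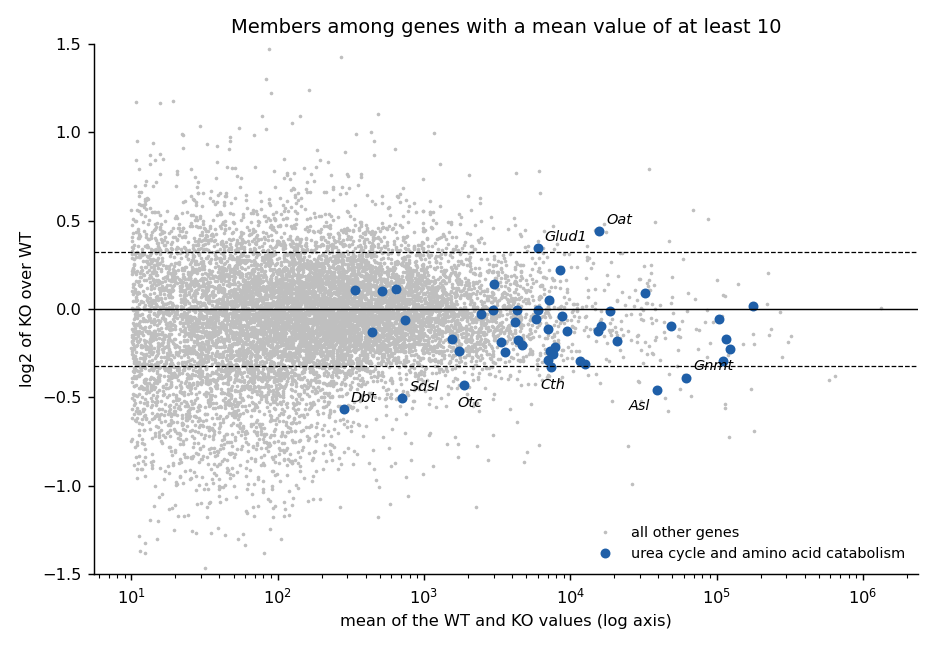
Each point is a gene whose mean value reached 10, placed by the mean of its WT and KO values (log axis) and its log2 ratio of KO over WT, with the 48 genes in blue and dashed lines at a log2 ratio of 0.32 in either direction. The 8 named genes are those past these lines, and 8 genes beyond a log2 ratio of 1.5 in either direction are not drawn.

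All 6 urea cycle genes had lower values in KO. They were also below 0 after either other scaling, although *Cps1* was then all but equal after scaling to the same sum (−0.0036), and the median was −0.19 after centring and −0.14 after scaling to the same sum. Without rescaling their median log2 ratio was −0.23, between −0.46 and −0.10, and their summed values were 254581 in WT against 216035 in KO. *Cps1* (chromosome 1 from 67123026 to 67231259), which makes carbamoyl phosphate in mitochondria, had the value nearest to equal, 50262 in WT against 46988 in KO, a log2 ratio of −0.10. *Nags* (chromosome 11 from 102145513 to 102149477), whose product activates that enzyme, had values of 1882 and 1594, a log2 ratio of −0.24. *Otc* (chromosome X from 10252305 to 10321024) joins carbamoyl phosphate to ornithine, and its value was 2172 in WT against 1611 in KO, 1.35-fold lower with a log2 ratio of −0.43.

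In the cytosolic steps, *Ass1* (chromosome 2 from 31470207 to 31520672), which joins citrulline and aspartate, had values of 132522 in WT against 113115 in KO, a log2 ratio of −0.23. *Asl* (chromosome 5 from 130011258 to 130029247) releases fumarate and arginine, and with 45701 and 33275 it showed the lowest ratio of the cycle, −0.46 or 1.37-fold lower. *Arg1* (chromosome 10 from 24915221 to 24927484), which splits arginine into urea and ornithine, had values of 22042.5 and 19453, a log2 ratio of −0.18. The enzymes differed far more from each other than between genotypes. Per kb of gene length the WT values were 81252 for *Ass1*, 28761 for *Asl*, 14803.5 for *Arg1*, 8999 for *Cps1*, 936 for *Otc* and 887 for *Nags*, and in KO the last pair changed places, with 695 for *Otc* and 751 for *Nags*. With no spread between pools, the order of *Otc* and *Nags* cannot be read as different in either genotype.

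Ornithine also leaves the cycle through ornithine aminotransferase, and the gene of this pericentral enzyme went the other way. *Oat* (chromosome 7 from 132557478 to 132576398) had a value of 13339.5 in WT against 18135 in KO, 1.36-fold higher with a log2 ratio of 0.44, the largest positive ratio of the 48 genes. The log2 ratio of *Otc* minus that of *Oat* was −0.87, and per kb the value of *Otc* was 0.151 times that of *Oat* in WT and 0.0825 times in KO. Proline oxidation, which enters the same semialdehyde pool as *Oat*, was represented by *Prodh* with 3565 in WT against 3131 in KO (log2 ratio −0.19), and the related hydroxyproline enzyme *Prodh2* had 4975 and 4317 (log2 ratio −0.20). The 9 pericentral marker genes had a median log2 ratio of 0.10, and 7 of them were higher and 2 lower in KO. Among all 11367 genes whose mean value reached 10, 57.7% were lower. The largest ratio among the 9 markers was that of glutamine synthetase (*Glul*), with 12521 in WT against 17099 in KO (log2 ratio 0.45). *Slc1a2*, *Rhbg* and *Cyp2e1* had log2 ratios of 0.37, 0.28 and 0.20. Those of *Axin2*, *Gulo*, *Lhpp*, *Cyp1a2* and *Lgr5* were 0.10, 0.04, 0.04, −0.01 and −0.07. The 3 periportal markers, *Cyp2f2*, *Pck1* and *Ctsc*, had log2 ratios of −0.16, 0.28 and 0.13, so that 2 of the 3 were higher in KO. The part of periportal and pericentral cells in the ratios of *Oat* and the urea cycle was not tested.

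The start regions of *Otc* and *Oat* are shown because both enzymes use ornithine and their genes had ratios of opposite sign. The windows run from 250 bases before to 50 bases after the transcription start in RefSeq (GRCm38.p6), chrX:10252055-10252354 on the plus strand for *Otc* and chr7:132576349-132576648 on the minus strand for *Oat*, and capitals mark the CCAAT box on either strand.
Otc: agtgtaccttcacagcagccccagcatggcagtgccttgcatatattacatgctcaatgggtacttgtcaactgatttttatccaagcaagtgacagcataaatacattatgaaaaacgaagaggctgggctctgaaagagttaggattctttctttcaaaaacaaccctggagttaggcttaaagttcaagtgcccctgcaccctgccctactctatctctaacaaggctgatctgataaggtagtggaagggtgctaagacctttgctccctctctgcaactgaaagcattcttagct
Oat: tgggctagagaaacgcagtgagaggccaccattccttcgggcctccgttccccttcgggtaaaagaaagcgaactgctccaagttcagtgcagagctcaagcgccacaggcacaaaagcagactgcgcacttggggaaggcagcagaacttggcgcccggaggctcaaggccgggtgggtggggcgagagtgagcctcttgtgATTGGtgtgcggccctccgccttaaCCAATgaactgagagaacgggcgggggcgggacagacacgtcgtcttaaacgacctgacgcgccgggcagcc

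The *Oat* window held CCAAT in forward orientation with its first base at −22 and in reverse orientation at −47, counted from the start, and 61.7% of its bases were G or C. The *Otc* window held no CCAAT and 44.3% G or C. Windows were listed for 37 of the 48 genes, with 40 windows in all, and 20 of these (50%) held CCAAT on either strand, beside 37.4% of all 32817 windows. TATAAA on either strand was in 5 of the 40 windows (12.5%) and in 13.6% of all windows. It was in forward orientation in *Ftcd* and *Tdo2* and in reverse orientation in *Got2*, *Hal* and *Hgd*. The C/EBP palindrome TTGCGCAA, the cAMP response element TGACGTCA and the HNF4 repeat CAAAGTCCA were in none of the 40 windows and in 0.183%, 1.79% and 0.475% of all windows. A match of letters is a description of the window and no evidence of binding.

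The enzymes that collect amino groups were split by gene. *Glud1* (chromosome 14 from 34310727 to 34345265), the mitochondrial dehydrogenase that frees ammonia from glutamate, had a value of 5267 in WT against 6691 in KO, 1.27-fold higher with a log2 ratio of 0.35. *Gls2*, the liver glutaminase, had values of 7331 and 6785.5 and a log2 ratio of −0.11. Aspartate and alanine aminotransferases each come in a cytosolic and a mitochondrial form. The cytosolic aspartate aminotransferase *Got1* had 12920 in WT against 10548 in KO, a log2 ratio of −0.29, and its mitochondrial partner *Got2* had 18847 and 18703, a ratio of −0.01. Cytosolic alanine aminotransferase *Gpt* had 9835 and 9035 (log2 ratio −0.12), and the mitochondrial *Gpt2* had 7887 and 9190 (log2 ratio 0.22). The log2 ratio of the cytosolic minus that of the mitochondrial enzyme was −0.28 for aspartate and −0.34 for alanine.

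**Figure D3:**
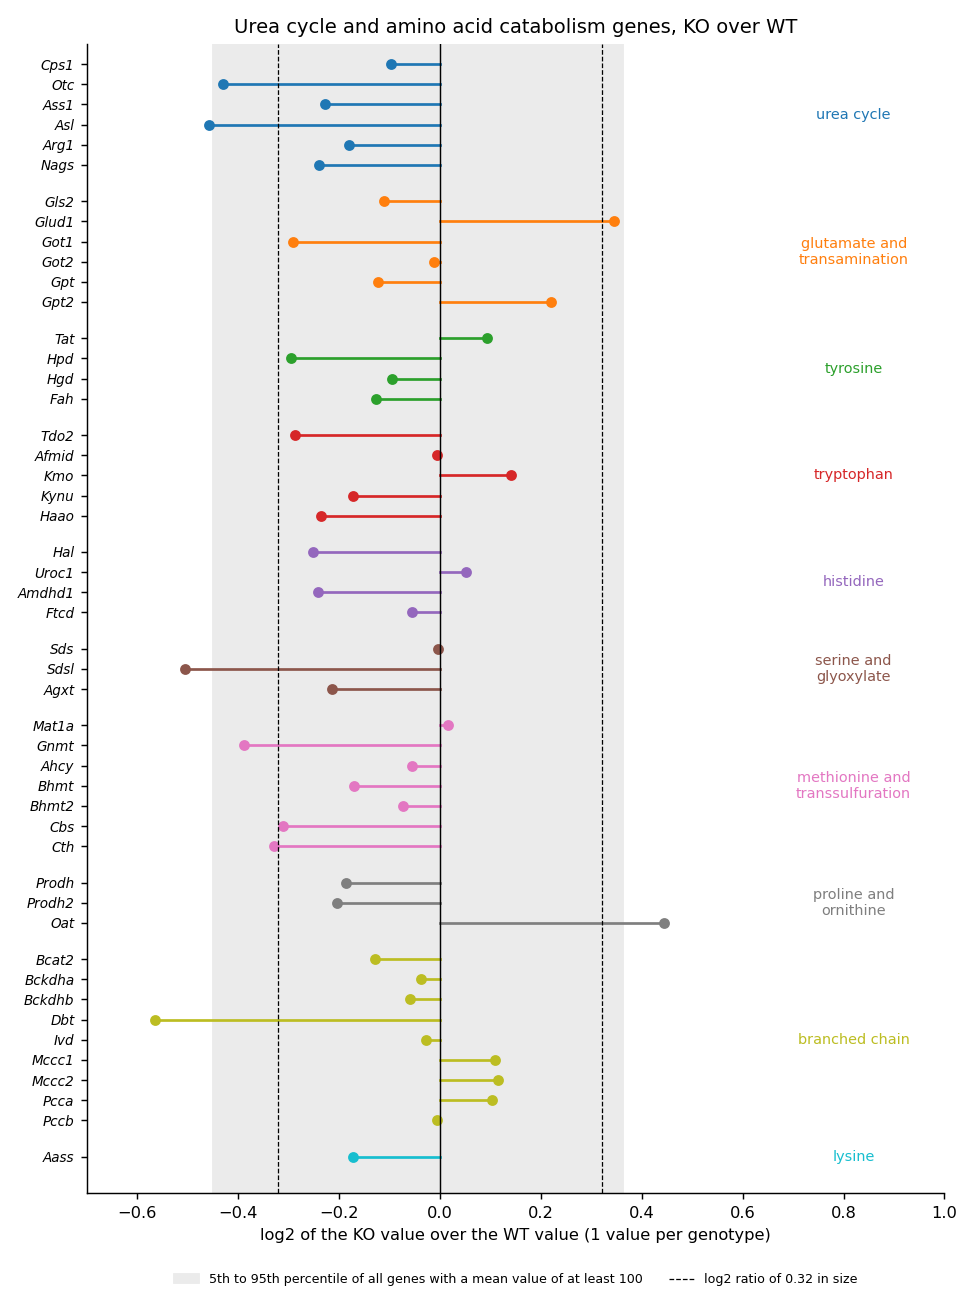
The log2 ratio of KO over WT is shown for each of the 48 genes, grouped by pathway, with dashed lines at 0.32 in either direction and a grey band for the 5th to 95th percentile of the 7063 genes whose mean value reached 100 (−0.45 to 0.36). *Dbt*, *Sdsl* and *Asl* lie below the band and *Oat* lies above it.

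Of the 4 tyrosine genes, 3 were lower in KO. Tyrosine aminotransferase (*Tat*), the first and hormonally regulated step, had 31515 in WT against 33608 in KO, a log2 ratio of 0.09. *Hpd*, the dioxygenase that forms homogentisate, had 122149 and 99579, a log2 ratio of −0.29 or 1.23-fold lower. The next enzymes open the ring of homogentisate and split fumarylacetoacetate, and *Hgd* with 16889 and 15810 and *Fah* with 16177 and 14816, had log2 ratios of −0.10 and −0.13. The median of the 4 genes was −0.11.

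Of the 5 tryptophan genes, *Tdo2*, which opens the ring in the liver, had the lowest ratio. Its value was 7689 in WT against 6297 in KO, a log2 ratio of −0.29. *Afmid*, the next step to kynurenine, had 4363 and 4346 (log2 ratio −0.01). Kynurenine is hydroxylated by *Kmo*, whose value of 2846 in WT against 3140 in KO gave a ratio of 0.14. It was the single ratio above 0 among these 5 genes. *Kynu*, which removes alanine from the side chain, had 1653 and 1467, and *Haao*, which oxidises 3-hydroxyanthranilate, had 7921 and 6723, log2 ratios of −0.17 and −0.24.

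Histidine is taken to glutamate in 4 steps, and each of the 4 genes was measured. *Hal*, the ammonia lyase of the first step, had 8228 in WT against 6909 in KO, a log2 ratio of −0.25. *Uroc1*, the urocanate hydratase of the next step, had 7014 and 7267, a ratio of 0.05. *Amdhd1*, the amidohydrolase of the next to last step, which lies beside *Hal* on the opposite strand of chromosome 10, had 3868.5 and 3272, a ratio of −0.24. *Ftcd*, which hands the last carbon to folate, had 5941 and 5713, a ratio of −0.06. The values of *Hal* and *Amdhd1* were thus 1.19-fold and 1.18-fold lower, and neither reached the log2 limit of 0.32.

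Serine dehydratase and its relative had unlike ratios. *Sds*, which turns serine and threonine into keto acids in the fasted liver, had 5991 in WT against 5975 in KO, a log2 ratio of −0.0039. *Sdsl* (chromosome 5 from 120458186 to 120472810), a neighbour and relative of *Sds*, had 834 and 587, 1.42-fold lower with a log2 ratio of −0.51. The difference between their ratios was 0.50, and per kb *Sds* stood 7.55-fold above *Sdsl* in WT and 10.7-fold in KO. *Agxt*, the peroxisomal enzyme that clears glyoxylate, had 8422 and 7254, a log2 ratio of −0.22.

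The methionine cycle makes S-adenosylmethionine, the methyl donor, and passes homocysteine back to methionine or on to cysteine. *Mat1a*, which makes S-adenosylmethionine, had the highest value of the 48 genes before division by length, 175504 in WT against 177340 in KO, a ratio of 0.02. *Gnmt* (chromosome 17 from 46725664 to 46729168), which uses up S-adenosylmethionine on glycine, had 70275.5 and 53702, 1.31-fold lower with a log2 ratio of −0.39. *Ahcy*, which splits the resulting S-adenosylhomocysteine, had 106165 and 102130, a ratio of −0.06. Homocysteine returns to methionine through *Bhmt*, with 122264 and 108663 and a ratio of −0.17, and through *Bhmt2*, with 4311 and 4097 and a ratio of −0.07. It leaves to cysteine through *Cbs*, with 13956 and 11252, and *Cth* (chromosome 3 from 157894248 to 157925077), with 8233 and 6550. The log2 ratios of *Cbs* and *Cth* were −0.31 and −0.33, or 1.24-fold and 1.26-fold lower, so that these consecutive enzymes lay on either side of the log2 limit of 0.32 with a difference of 0.02.

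**Figure D4:**
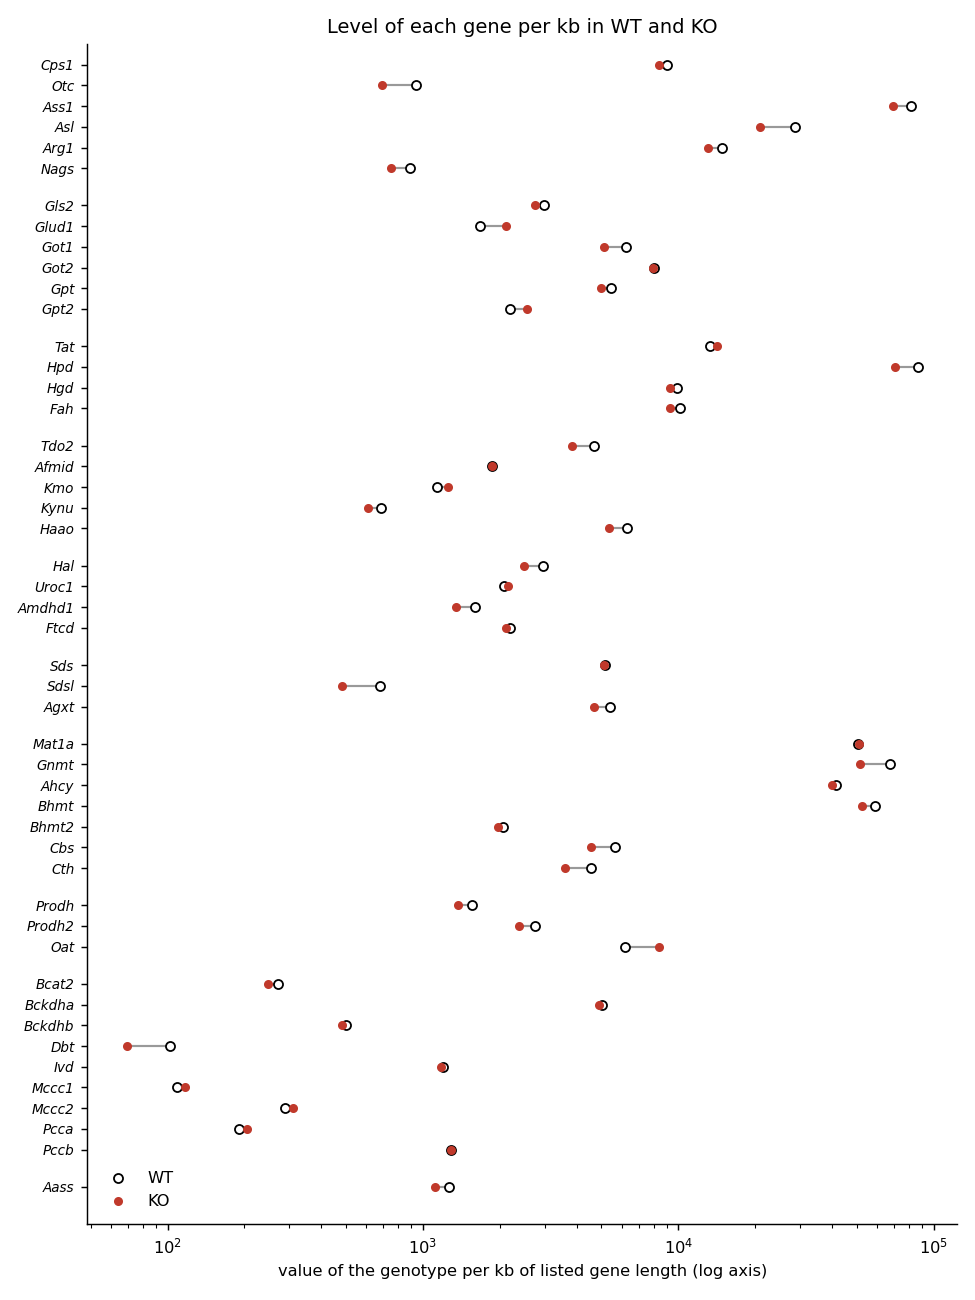
Values of WT (open circles) and KO (red circles) divided by the listed gene length in kb are shown on a log axis for the 48 genes, in the order of the pathways. In WT the genes span from 102 (*Dbt*) to 86754 (*Hpd*), while no gene differs by 1.5-fold between genotypes.

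The branched chain route takes leucine, isoleucine and valine through a shared dehydrogenase. Of its 9 genes 6 had values below those of WT and 3 above, with a median log2 ratio of −0.03, whereas 3 were lower and 6 higher after centring and 2 lower and 7 higher after scaling to the same sum, with medians of 0.02 and 0.07. *Bcat2*, the mitochondrial transaminase that is weak in hepatocytes, had 458 in WT against 418 in KO, a log2 ratio of −0.13. The branched chain ketoacid dehydrogenase is built of E1, E2 and E3 units. Its E1 genes *Bckdha*, with 8909 and 8680, and *Bckdhb*, with 754 and 723, had ratios of −0.04 and −0.06. Its E2 core *Dbt* (chromosome 3 from 116513070 to 116549981) had 337 and 228, 1.48-fold lower with a log2 ratio of −0.57, which was the lowest ratio and the lowest level of the 48 genes. Among the 5298 genes of mean value between 100 and 1000, 5% had a log2 ratio of −0.49 or lower.

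Leucine goes on through *Ivd*, with 2478 in WT against 2431 in KO, and the methylcrotonyl-CoA carboxylase units *Mccc1*, with 325 and 350, and *Mccc2*, with 616 and 668. The log2 ratios were −0.03, 0.11 and 0.11. The propionyl-CoA carboxylase units, *Pcca* with 495 and 531 and *Pccb* with 2976 and 2965, had ratios of 0.10 and −0.01. The ratio of the subunits of each carboxylase was alike in both genotypes, since *Mccc1* stood per kb at 0.378 times *Mccc2* in WT and 0.376 times in KO, and *Pcca* at 0.147 times and 0.159 times *Pccb*. Lysine breakdown was represented by *Aass*, with 4669 and 4141 and a log2 ratio of −0.17.

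Among the 16123 genes ranked by value per kb, 7 of the 48 genes were in the first 100, 26 in the first 500 and 38 in the first 1000. The 48 genes together made up 5.63% of the sum of all values in WT and 5.45% in KO. Their summed value had a log2 ratio of −0.14, while the sum over all genes had a ratio of −0.09. The log2 ratio of the summed values was −0.24 for the urea cycle, −0.19 for tyrosine, −0.11 for the methionine group and 0.23 for proline and ornithine, which *Oat* dominates.

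Some of these genes share sequence with other annotated genes. The search took both orientations and did not tell copies elsewhere in the genome from genes that overlap at the same place. How the authors' counting divided such reads is not given in the sources used here. In the GENCODE M21 transcripts (GRCm38), 35 of the 48 genes had no window of 100 bases in common with another gene. The share of windows in common was 70.2% for *Ahcy*, 44.8% for *Afmid*, 41.9% for *Bhmt*, 38.9% for *Ass1*, 36.4% for *Bckdha*, 25.3% for *Got2*, 18.1% for *Sds*, 17.9% for *Nags* and 9.64% for *Bcat2*. The copy *Gm4737* of *Ahcy* was listed at 171 in WT against 79.5 in KO, and the copy *Gm5424* of *Ass1* at 33.9 and 26.4, both under 1% of the parent gene. *Plbd2*, which shares windows with *Sds*, had 3985 and 3693. *0610005C13Rik*, which shares windows with *Bcat2*, had 3914 and 3963, well above *Bcat2* itself. The values of these genes are uncertain to the extent that reads were split between genes that share windows. *Otc*, *Asl*, *Gnmt*, *Cth*, *Sdsl*, *Dbt* and *Oat* had no shared window, and *Glud1* had 3.53%.

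Further genes of amino acid metabolism, set in a list of 67 genes found in the table, were distributed like the other genes of the liver. Of the 63 whose mean value reached 10, 35 were lower and 28 higher in KO, and their median was −0.04. A difference of 1.5-fold was listed for 3 of them, all lower, and for 1 after either other scaling. Without rescaling, 7.35% of all genes whose mean value reached 10 passed that fold. *Asns*, asparagine synthetase, had 55.2 in WT against 30.7 in KO, a log2 ratio of −0.85. *Ppm1k*, the phosphatase that switches on the branched chain dehydrogenase, had 359 and 232 (log2 ratio −0.63), and *Hibch*, of valine breakdown, had 274 and 182 (log2 ratio −0.59). Past the log2 limit of 0.32, 9 were lower and 2 higher. Among these, named after their values were seen, *Dld*, the E3 unit shared with the branched chain dehydrogenase, had 431 and 305 (log2 ratio −0.50), *Acadsb* of isoleucine breakdown had 494 and 352 (log2 ratio −0.49), and *Mut*, which completes propionate breakdown, had 655 and 479 (log2 ratio −0.45). The 2 higher genes were *Glul* and *Ccbl2*, the latter with 1406 and 1778 (log2 ratio 0.34).

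The transcription factors known to act on these enzymes in fasting were 13 genes, of which 7 were lower and 6 higher in KO and whose median was −0.06. *Creb1*, which binds cAMP response elements, was the single one past 1.5-fold, with a value of 51.3 in WT against 33.3 in KO (log2 ratio −0.62), and it was within 1.5-fold after either other scaling. *Ppara*, the fasting receptor for fatty acids, had 3501 and 4872 (log2 ratio 0.48), and the glucocorticoid receptor *Nr3c1* had 257 and 183 (log2 ratio −0.49). *Ppargc1a* had 103 and 76.2 (log2 ratio −0.44), and *Foxo1* had 478 and 611 (log2 ratio 0.35). *Klf15*, a regulator of amino acid breakdown in fasting, had 2587 and 2617, and *Cebpa* and *Cebpb* had log2 ratios of −0.12 and −0.06.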

How the data were processed

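Liver RNA pools of 3 mice each were sequenced by the authors, 3 pools per genotype. The deposited expression table holds per gene 1 value for WT and 1 for KO, a signal that the authors combined over the pools after dividing reads by size factors (DESeq2), beside the gene length in bases. No gene is listed at 0 although 2017 genes have a mean under 1, so low values appear moderated. Its columns of the authors' comparison (log2 fold change, p and adjusted p) were not used. Deposited quality tables give read counts per library and percent mapped. The submitters' processing notes name HISAT2, StringTie, Cufflinks, GATK, Bowtie2, RSEM and mm10; which tool made these values is not given in the sources used here. The splicing table was not used.

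The log2 ratio was computed as log2 of KO over WT, with no pseudocount, over all 16123 genes, and shares were taken over genes whose mean value reached 10 or 100. Calculations were tested on simulated data. With 1 value per genotype no test was possible and the planned count tests were not run. Differences past a log2 ratio of 0.32 and past 1.5-fold are descriptions. By rule all 48 members are given with both values, and of the other pathway genes and regulators those past 1.5-fold are named. Further genes of these lists were named outside this rule. Members and lists were chosen with earlier results of these data known. Positions come from GENCODE M21 (GRCm38), and promoters from RefSeq. Alternatives were pseudocounts of 1 and 10, centring, scaling to the same sum and other filters.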

Additional observations from a re-analysis of the deposited data

How the results depend on the processing

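Pseudocounts of 1 and 10, centring on the median of all genes and scaling to the same sum moved each of the 48 ratios by less than 0.1 on the log2 scale. This was fixed by the settings and is no measure of precision. Centring takes −0.0472 and scaling to the same sum takes −0.0935 from the ratio of every gene. Pseudocounts could change little, since the lowest mean value of the 48 genes was 282. The median of the 48 genes was −0.12 without rescaling and −0.03 after scaling to the same sum. The sign changed under some setting for 10 genes, *Got2*, *Afmid*, *Ftcd*, *Sds*, *Ahcy*, *Bhmt2*, *Bckdha*, *Bckdhb*, *Ivd* and *Pccb*. The 6 lower genes past the log2 limit of 0.32 became 5 after centring and 4 after scaling to the same sum. The 2 higher genes stayed 2 in number. *Cth* came within the limit after centring (−0.283), and *Cth* (−0.236) and *Gnmt* (−0.295) after scaling to the same sum. The methionine group, with 6 lower genes and 1 higher, had 4 lower and 3 higher after scaling to the same sum. The count of other amino acid genes past 1.5-fold, 3 as reported, was 1 after centring and 1 after scaling to the same sum. No paired analysis was possible because the values are combined per genotype and the pool numbers of the genotypes share only the number 2. Leaving out a pool and the count tests planned with edgeR and DESeq2 were not run, since no gene has a value per pool. The depth of 44.0 to 46.1 M reads per library limits the precision of each value, but the spread between pools, which is not visible, limits it in an unknown way.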
